A study of Homo sapiens with 2 samples.

Results

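On the long arm of human chromosome 2, the genes from NMI to NOSTRIN had mostly lower transcript levels in a gefitinib-resistant lung adenocarcinoma line than in its parental line. The stretch spans 17.5 Mb between the starts of these genes by GENCODE release 29, and it was chosen because earlier results on the same libraries showed low ratios there. Members were the table's genes between both ends, placed by Ensembl identifier, without ITGB6, IFIH1, B3GALT1, NR4A2 and the GALNT, KCN, SLC and ABC families. This gave 51 members of the 20985 genes in the table, and 11 genes were left out. Since measured values chose the stretch, its ratios are a description and no test was made on them.

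HCC827 is an established lung cancer cell line whose EGFR gene is mutated, and gefitinib inhibits the EGFR tyrosine kinase. HCC827 ZDR3 is its resistant derivative, selected with a monthly 3-fold increase of gefitinib from 10 nM up to 1 µM. The protocol then names 3 colonies and breaks off. Both lines share the labels' growth protocol, in DMEM with dialyzed serum and labelled or unlabelled lysine. The title of the study concerns JUN and EGFR signalling in such resistance. Polyadenylated RNA of each line was sequenced once, giving 257192597 parental and 243549866 resistant reads in genes. Each group therefore holds 1 library, no difference has a replicate check, and no p-value is given. The labels do not say how many clones ZDR3 represents or whether drug was present at harvest.

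Values are given as levels, in normalised reads as deposited, where 1 unit stands for 143 reads in parental and 138 in resistant cells. Levels are not divided by gene length, so they are compared between libraries and not between genes, except where a value per kb is named. Log2 ratios compare the resistant level with the parental level, each increased by 1 unit, which understates the change of low genes. Genes that reached a level of 1 in either library were called expressed. Plain ratios, without the added unit, carry exact 95% binomial (Clopper-Pearson) intervals that cover counting error only.

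Neighbouring genes on a chromosome share DNA copy number and, in part, chromatin state, so a block of neighbours can differ together between related lines. The genes of this stretch otherwise belong to unrelated pathways. They include regulators of innate immune signalling (NMI, TANK), junction and actin proteins (PKP4, FMNL2), metabolic enzymes (GPD2, CERS6), surface receptors and proteases (LY75, DPP4) and the main cluster of voltage-gated sodium channel genes.

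Promoter sequences of 5 members are shown because they represent both directions of change and both kinds of promoter, rich or poor in CpG dinucleotides. Each runs 5′ to 3′ on the strand of its gene, from 250 bases before to 50 bases after the annotated start, taken from RefSeq on GRCh38.p14, with CG dinucleotides in capitals. TNFAIP6 (chr2:151357342-151357641, plus strand) had the highest ratio of the members, and its promoter holds 2 CpG. SCN9A (chr2:166375895-166376194, minus strand) also had a higher level and holds 28. TANK (chr2:161136713-161137012, plus strand) had one of the lowest ratios and holds 2. PKP4 (chr2:158456702-158457001, plus strand) and BAZ2B (chr2:159712393-159712692, minus strand) hold 31 each and lie head to head with other members.
TNFAIP6: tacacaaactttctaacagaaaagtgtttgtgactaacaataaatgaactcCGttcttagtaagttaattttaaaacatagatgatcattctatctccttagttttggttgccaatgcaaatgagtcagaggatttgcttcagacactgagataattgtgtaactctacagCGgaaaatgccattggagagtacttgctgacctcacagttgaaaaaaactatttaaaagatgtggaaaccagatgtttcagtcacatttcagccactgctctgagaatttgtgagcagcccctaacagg
SCN9A: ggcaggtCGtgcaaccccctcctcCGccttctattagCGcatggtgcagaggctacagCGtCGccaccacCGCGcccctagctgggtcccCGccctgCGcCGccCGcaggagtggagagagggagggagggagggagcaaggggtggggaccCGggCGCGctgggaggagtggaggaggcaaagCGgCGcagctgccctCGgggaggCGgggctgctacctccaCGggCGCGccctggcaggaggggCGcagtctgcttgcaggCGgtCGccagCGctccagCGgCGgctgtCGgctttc
TANK: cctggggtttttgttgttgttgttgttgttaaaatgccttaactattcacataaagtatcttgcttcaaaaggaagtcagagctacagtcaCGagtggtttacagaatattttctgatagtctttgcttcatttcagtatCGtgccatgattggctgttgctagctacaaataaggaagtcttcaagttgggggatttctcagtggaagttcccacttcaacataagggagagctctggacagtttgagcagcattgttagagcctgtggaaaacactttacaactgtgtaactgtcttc
PKP4: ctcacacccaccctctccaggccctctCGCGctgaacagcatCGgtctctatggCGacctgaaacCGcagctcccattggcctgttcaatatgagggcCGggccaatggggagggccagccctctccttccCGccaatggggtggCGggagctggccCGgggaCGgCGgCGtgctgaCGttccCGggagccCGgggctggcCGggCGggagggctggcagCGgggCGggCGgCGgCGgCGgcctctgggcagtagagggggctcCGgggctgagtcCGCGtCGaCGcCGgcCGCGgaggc
BAZ2B: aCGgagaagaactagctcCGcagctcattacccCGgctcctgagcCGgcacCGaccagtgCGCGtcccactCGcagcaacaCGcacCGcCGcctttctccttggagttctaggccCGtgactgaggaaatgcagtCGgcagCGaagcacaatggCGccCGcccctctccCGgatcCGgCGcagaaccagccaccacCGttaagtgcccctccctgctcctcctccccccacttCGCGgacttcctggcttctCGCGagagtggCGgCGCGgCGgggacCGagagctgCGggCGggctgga

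Of the 51 members 38 were expressed, and 31 of these had a log2 ratio below 0, where 52.2% of all 13777 expressed genes did. At least 2-fold lower were 13 members, or 34.2%, against a background of 9.68%. At least 2-fold higher were 5 members, or 13.2%, against 10.6%. These 5 include LY75 and the read-through LY75-CD302, which shares 88.8% of its exon bases with LY75, so the 2 are not separate observations. The median log2 ratio of the expressed members was -0.78, compared with -0.03 over all expressed genes and -0.08 over the 856 expressed genes of chromosome 2 outside the stretch. In a bulk library, fewer cells carrying a transcript and less transcript per cell cannot be told apart.

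Many members lay close to the 2-fold line. A log2 ratio within 0.25 of -1 was found for 13 expressed members (34.2%) and for 1041 of all expressed genes (7.56%). Counts at 2-fold therefore move easily: with a threshold of 1.5-fold, 23 members were lower, against a background of 18.7%. With 5 units added in place of 1, only 6 members were at least 2-fold lower, and with levels per kb of exon 5 of 32 were. These are 15.8% and 15.6% of the members, against 6.28% and 7.49% of all expressed genes under the same settings. Counting error adds to this for members at the line. PKP4 (0.481 to 0.503) and GRB14 (0.449 to 0.503), counted as lower, had plain-ratio intervals that included a 2-fold difference. So did members not counted, such as NMI (0.456 to 0.525), STK39 (0.486 to 0.528) and COBLL1 (0.496 to 0.522). Among the 29 members with 1000 or more reads in each library, the widest interval of the plain ratio reached 7.56% to either side.

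**Figure D1:**
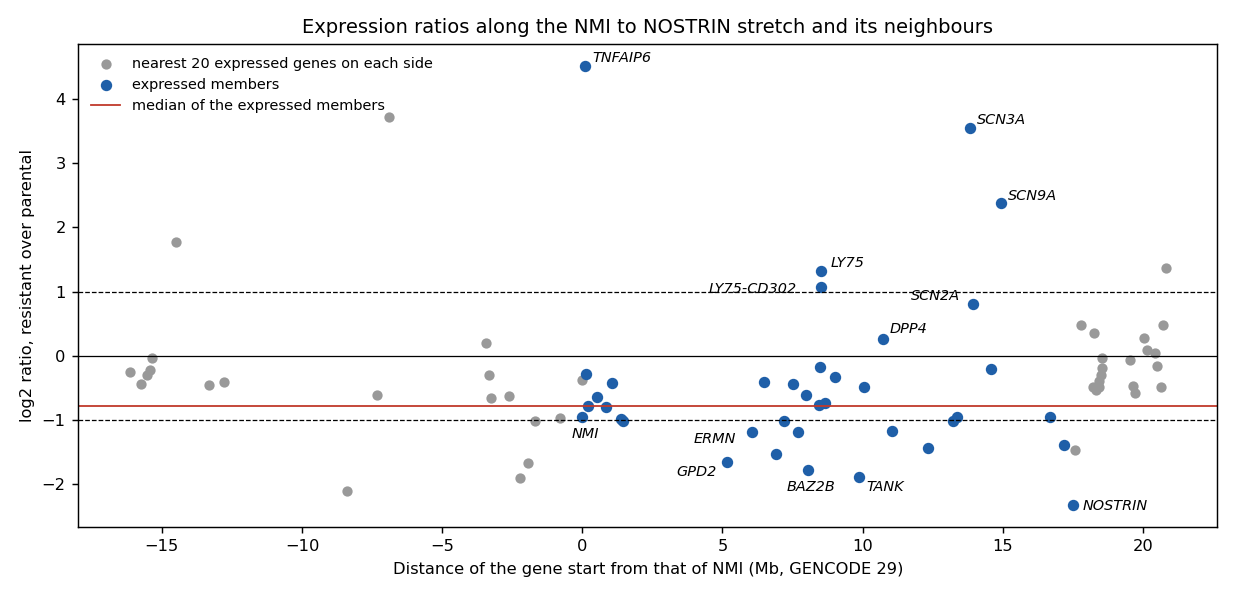
Log2 ratio of resistant over parental for the 38 expressed members (blue) and for the 20 nearest expressed genes on each side (grey), against the distance of each gene's start from that of NMI in Mb. Dashed lines mark 2-fold differences and the red line the members' median of -0.78; most blue points lie between -2 and 0, while TNFAIP6, SCN3A and SCN9A stand above 2.

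The low ratios did not stop sharply at NMI. On that side, the nearest expressed gene outside, RBM43, had a log2 ratio of -0.38, against -0.95 for NMI itself. Next came RND3 (-0.97), MMADHC (-1.03), LYPD6 (-1.67) and LYPD6B (-1.91), so that the 5 nearest genes were all below 0. At the other end NOSTRIN had -2.33 and its outer neighbour SPC25 -1.47, after which DHRS9 (0.47), BBS5 (-0.49), FASTKD1 (0.35) and PPIG (-0.54) went both ways. The 20 nearest expressed genes had a median of -0.43 before NMI and of -0.18 after NOSTRIN. At least 2-fold lower were 4 and 1 of them, against 9.68% of all expressed genes. At least 2-fold higher were 2 before NMI, ZEB2 (3.73) and THSD7B (0 and 331 reads), and 1 after NOSTRIN, DLX1 (1.36), against 10.6%.

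In chromosome order, medians of consecutive groups of 9 or 10 expressed members were -0.79 (NMI to GPD2), -0.90 (ERMN to CD302), -0.50 (LY75-CD302 to FIGN) and -0.95 (GRB14 to NOSTRIN). The group from LY75-CD302 to FIGN had 3 of 9 above 0 (LY75, LY75-CD302 and DPP4). The last group also had 3 of 9 above 0, all of them sodium channel genes. The 15 expressed members on the plus strand had a median of -1.01 and the 23 on the minus strand one of -0.74. Among genes left out by name, 5 of 11 were expressed and 4 of these were at least 2-fold lower, with ITGB6 at 353 in parental and 10.6 in resistant cells and GALNT3 at 396 and 3.0. Including them would bring the median to -0.95.

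**Figure D2:**
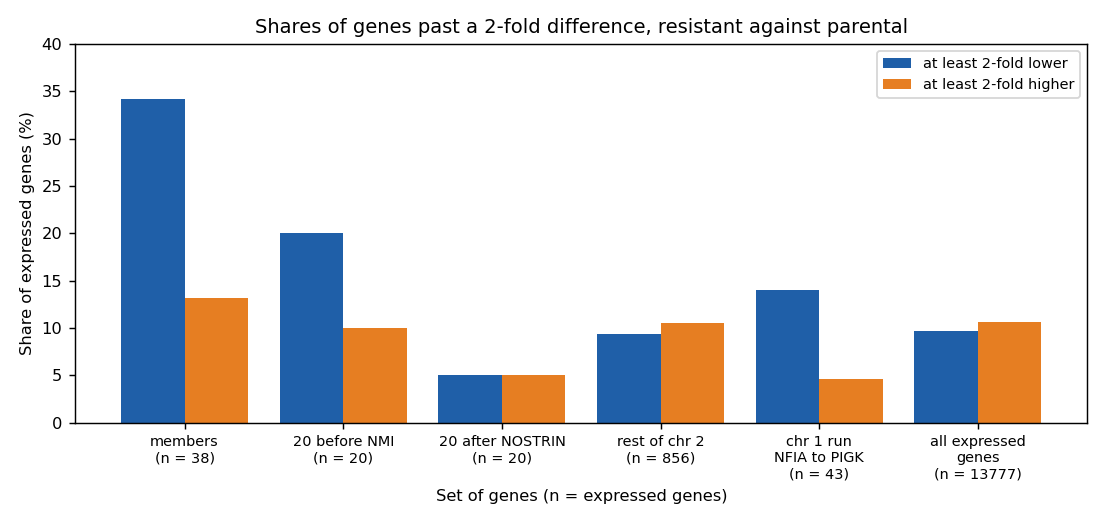
Share of expressed genes, in percent, that were at least 2-fold lower (blue) or higher (orange) in the resistant library, for the members, their neighbours, other chromosome 2 genes, a lowered chromosome 1 run and all expressed genes. The members' lower share of 34.2% is above the 9.68% of all genes, while their higher share of 13.2% is near the 10.6% of all genes.

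A lowered run on chromosome 1, from NFIA to PIGK, was set beside the stretch. Its 43 expressed genes had a median of -0.43, with 6 (14.0%) lower and 2 (4.65%) higher by 2-fold or more. Over all expressed genes these shares were 9.68% and 10.6%. Both the run and the stretch were chosen for low ratios, so the difference between them was not tested.

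Immune and cytokine signalling genes took opposite directions. TANK, an adaptor that binds TRAF proteins and the kinase TBK1 and restrains NF-kB signalling, was at 166 in parental and 44.0 in resistant cells. The plain ratio of parental over resistant was 3.78 (3.67 to 3.89), and the log2 ratio of -1.89 was the second lowest among the expressed members. NMI, an interferon-induced protein that binds MYC and STAT factors, was at 17.3 and 8.49, a log2 ratio of -0.95. TNFAIP6, a secreted hyaluronan-binding protein induced by TNF, went the other way, at 0.0350 and 22.7. Its parental value rested on 5 reads against 3127 in the resistant library, a ratio of 649 with an interval of 278 to 2001. TNFAIP6 starts next to NMI, and its log2 ratio of 4.52 was the highest of all members. CYTIP, a cytohesin-interacting protein of leukocytes, had 30 and 8 reads and was below the minimum level.

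Partners of TANK and NMI elsewhere in the genome had ratios closer to 0. TBK1 was at 479 and 349 (log2 ratio -0.46), IKBKE, the related kinase, at 25.7 and 16.5 (-0.61), and TRAF3 at 85.4 and 94.3 (0.14). Of the TBK1 adaptors related to TANK in function, AZI2 had a log2 ratio of -0.19 and TBKBP1 one of 1.15. IFI35, the relative of NMI, was at 20.04 and 22.9 (0.18).

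Junction and cytoskeleton genes were the largest group, and all 8 expressed members were lower in resistant cells, where 52.2% of all expressed genes and 31 of the 38 expressed members of the stretch were. Of these 5 were at least 2-fold lower, beside the 34.2% of the stretch and 9.68% of all expressed genes. Roles, here and in the other groups, were given with earlier results known. FIGN, among the 5, was given its role after values were seen, so these counts only describe the grouping. NOSTRIN, which binds endothelial nitric oxide synthase and takes part in its internalisation, was at 4.68 in parental and 0.131 in resistant cells, from 668 and 18 reads. That made it 35.7-fold lower by plain ratio (22.4 to 60.7), the lowest log2 ratio of the expressed members. ERMN, an actin-binding protein of myelinating cells, had 185 reads in parental cells and 0 in resistant cells. With the resistant library set at a floor of 3 counts it was 59.4-fold lower. The exact interval, which uses no floor, began at 47.8-fold.

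FIGN, a microtubule-severing enzyme, was at 11.4 and 3.56 (log2 ratio -1.44). TANC1, a scaffold protein of synapses, was at 58.1 and 24.997 (-1.18). PKP4, an armadillo-repeat protein of cell junctions, was at 174 and 85.7 (-1.01). COBLL1, a relative of the actin nucleator COBL, was at 126 and 64.2 (-0.96), and NEB, the giant thin-filament protein of muscle, at 14.8 and 8.15 (-0.79). FMNL2, a formin that builds actin filaments at the leading edge, was nearest to 0, at 100 and 74.4 (-0.42). XIRP2, an actin-binding muscle protein, was below the minimum level with 0 and 58 reads. With the parental library set at the same floor it was 20.1-fold higher, and the exact interval began at 15.8-fold.

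Among relatives of these genes the pattern varied by family. The armadillo relatives of PKP4 were low too: CTNND1 had a log2 ratio of -0.91, PKP2 one of -1.11 and PKP3 one of -0.62, and PKP1 had 862 and 0 reads. ARVCF was nearer to 0 (-0.19). TANC2 (-1.32) was as low as TANC1. In contrast COBL was at 138 and 149 (0.10), and the relatives of FMNL2 diverged, with FMNL1 at -0.88 and FMNL3 at 1.31.

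Kinase and adaptor genes had nearly equal ratios. GRB14, an adaptor that binds and inhibits the insulin receptor, was at 27.5 in parental and 13.1 in resistant cells (log2 ratio -1.02). STK39, the kinase that WNK kinases activate to control ion cotransporters, was at 46.6 and 23.6 (-0.95). STAM2, an endosomal protein that sorts ubiquitinated receptors for degradation, was at 20.7 and 11.5 (-0.80). Their partners moved less, except GRB7 (-1.71). GRB10 had -0.39, OXSR1, the closest relative of STK39, 0.07, STRADA -0.08, WNK1 -0.04 and WNK4 -0.15. STAM2's partners were STAM at -0.05 and HGS, which forms a complex with STAM proteins, at 0.64.

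Both expressed metabolic members were lower. GPD2, the mitochondrial glycerol-3-phosphate dehydrogenase of the glycerol phosphate shuttle, was at 129 in parental and 40.4 in resistant cells. It was 3.20-fold lower by plain ratio (3.11 to 3.30), with a log2 ratio of -1.65. CERS6, a ceramide synthase, was at 128 and 47.9 (-1.40). Their relatives varied. Among ceramide synthases CERS2 was at 505 and 963 (0.93), CERS5 at 47.4 and 51.5 (0.12), CERS4 at 0.763 and 6.53 (2.10) and CERS1 at 1.71 and 0.661 (-0.71). By plain ratio of parental over resistant, the intervals of CERS1 (2.59, 2.03 to 3.34) and CERS6 (2.67, 2.60 to 2.75) overlapped. GPD1L, a cytosolic relative in the same reaction, was at 18.1 and 36.7 (0.98).

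Genes of chromatin, RNA binding and protein turnover had smaller differences, apart from BAZ2B. BAZ2B, a bromodomain protein of chromatin remodelling complexes, was at 121 in parental and 34.4 in resistant cells, 3.51-fold lower (3.39 to 3.62) with a log2 ratio of -1.78. Its relatives BAZ2A (-0.56), BAZ1A (-0.08) and BAZ1B (-0.10) lay nearer 0. RIF1, which steers double-strand break repair and replication timing, was at 215 and 176 (-0.29), and RBMS1, an RNA-binding protein, at 88.2 and 69.6 (-0.34).

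PSMD14, the deubiquitinase of the proteasome lid, was at 69.0 and 48.6 (log2 ratio -0.50), the lowest ratio beside its 10 partners in the regulatory particle. Those ranged from -0.42 (PSMD13) to 0.24 (PSMD7), with a median of -0.04 and 0 at least 2-fold changed in either direction. MARCH7, a membrane-associated ubiquitin ligase listed in the table under a date-like name and identified by its Ensembl identifier, was at 152 and 88.5 (-0.78). WDSUB1, a protein with a U-box, was at 29.4 and 18.8 (-0.61).

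Of 6 expressed genes of traffic, cilia and calcium binding, 3 were at least 2-fold lower, beside the 34.2% of the stretch and 9.68% of all expressed genes. CCDC148, a coiled-coil protein, was at 7.34 in parental and 1.88 in resistant cells (log2 ratio -1.53). GCA, the calcium-binding protein grancalcin, was at 70.0 and 30.5 (-1.17), while its relatives SRI (-0.08), PDCD6 (0.23), CAPNS1 (-0.11) and PEF1 (0.33) stayed near 0. ARL6IP6 was at 17.0 and 7.86 (-1.02). TTC21B, a subunit of the intraflagellar transport machinery of cilia, was at 13.5 and 11.6 (-0.21). DAPL1 was at 1.08 and 0.530, from 155 and 73 reads.

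**Figure D3:**
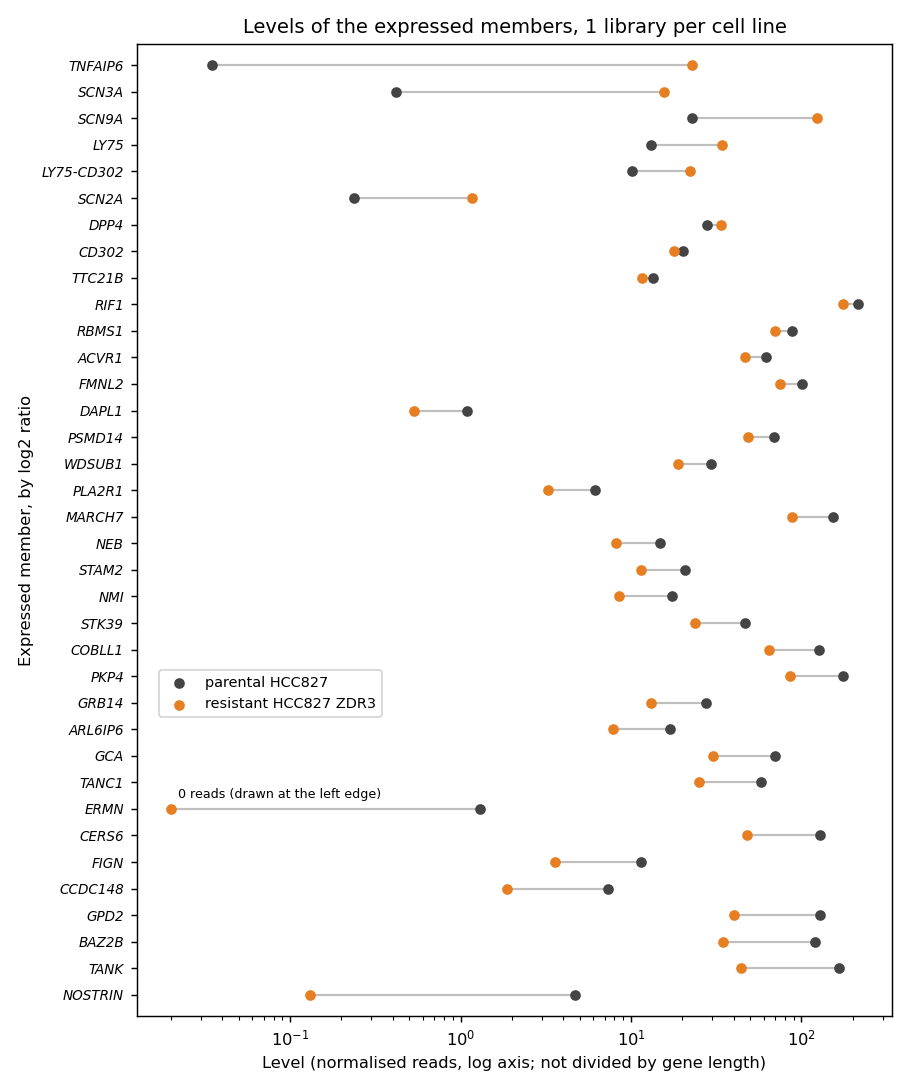
Level of 36 expressed members in the parental (grey) and resistant (orange) library, in normalised reads on a log axis, ordered by log2 ratio. In 29 of 36 lines the orange point lies to the left; TNFAIP6, the sodium channel genes and LY75 are the clearest in the other direction, and NOSTRIN and ERMN are the widest among the lower ones.

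ACVR1, a type I receptor for BMPs and activins, was at 62.3 in parental and 46.5 in resistant cells (log2 ratio -0.41). ACVR1C, a type I receptor for nodal and some activins, had 45 and 53 reads, and its interval of 0.806 to 1.86 for resistant over parental included 1. The 9 other TGF-beta family receptors examined had a median of 0.01, with BMPR1B at 1.74 and TGFBR2 at -0.94 as the extremes.

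Surface proteases and lectin receptors went both ways. DPP4, a dipeptidyl peptidase that trims peptide hormones and chemokines, was at 27.8 in parental and 33.6 in resistant cells, a plain ratio of 1.21 (1.16 to 1.26). FAP, the neighbouring relative of DPP4 known from activated fibroblasts, had 9 and 6 reads, and GCG, the glucagon gene between them, had 0 in both. Other peptidases of the family had log2 ratios from -0.37 (DPP8) to 0.67 (DPP7).

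LY75, an endocytic receptor of the mannose receptor family on dendritic cells and some epithelia, was at 13.1 and 34.3, a plain ratio of 2.62 (2.48 to 2.77). The read-through transcript LY75-CD302, which joins LY75 to its neighbour, was at 10.1 and 22.2 (log2 ratio 1.06). It shares 88.8% of its exon bases with LY75, so their reads cannot be told apart with certainty. CD302, a C-type lectin, was at 20.3 and 17.9 (-0.17), and 58.8% of its exon bases lie opposite MARCH7 exons. The counting program and strand setting were not given in the sources used here, so part of these reads may be assigned to either gene. PLA2R1, the phospholipase A2 receptor of the same family, was lower, at 6.13 and 3.27 (-0.74), and MRC2, a family member elsewhere, was at 23.3 and 87.9 (1.87).

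All 5 sodium channel genes of the stretch had more reads in the resistant library, few for some of them. SCN9A, the pain-related channel gene, was at 22.8 in parental and 123 in resistant cells, a plain ratio of 5.37 (5.17 to 5.58). SCN3A, mostly a fetal brain channel, was at 0.420 and 15.7, from 60 and 2164 reads, a ratio of 37.4 (28.98 to 49.2). SCN2A had 34 and 161 reads (4.92, interval 3.38 to 7.34), SCN1A 12 and 69 (5.97, 3.21 to 12.1) and SCN7A 6 and 32 (5.54, 2.28 to 16.2). For each of the 5 genes the interval lay above 1, though SCN1A and SCN7A were below the minimum level and SCN2A had a log2 ratio of 0.81. These genes are close in sequence, so a share of the lower counts may come from reads of SCN9A or SCN3A; this was not tested.

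The channels lie together between COBLL1 and STK39. Of the 8 members in that interval 7 had a higher level in the resistant library, XIRP2 and CSRNP3 (6 and 8 reads) included, and TTC21B was lower. Over all expressed genes 52.2% were lower. The interval of CSRNP3, 0.421 to 4.84, included 1. GALNT3, left out by name and described above as far lower, also lies there, between CSRNP3 and TTC21B. SLC38A11 (0 and 8 reads) and B3GALT1 (0 and 77 reads), left out as well and below the minimum level, lie there too. Up to COBLL1, 4 of the 31 expressed members were above 0, and past the channels STK39, CERS6 and NOSTRIN were low again. Outside the stretch, SCN8A was the single expressed channel gene of 9 examined and was lower, at 19.4 and 9.18 (log2 ratio -1.004). SCN4A and SCN10A had 0 reads in both libraries, and CACNB4, a calcium channel subunit gene of the stretch, had 0 as well.

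Of the 13 members below the minimum level, 4 had 0 reads in both libraries (CACNB4, UPP2-IT1, TBR1, GCG), 3 had at most 9 reads in either library and 6 had between 10 and 69 in the library with more. The last 6 were RPRM (13 and 6 reads), CYTIP, ACVR1C, SCN1A, SCN7A and XIRP2. Intervals for RPRM (0.149 to 1.35), UPP2 with 3 and 4 reads (0.234 to 9.45) and FAP (0.203 to 2.18) included 1.

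**Figure D4:**
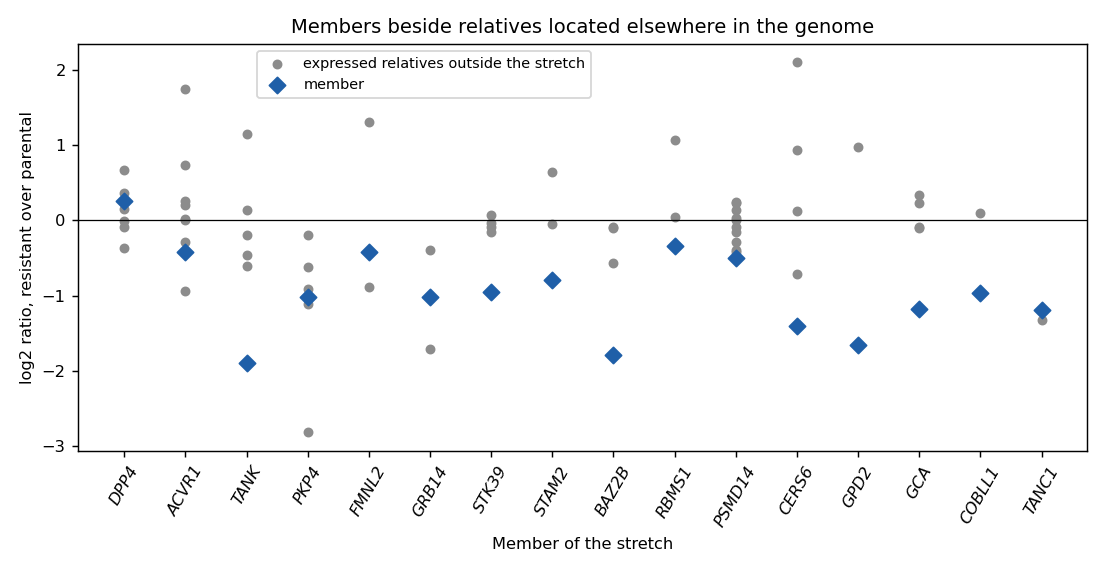
Log2 ratio of resistant over parental for 16 members (blue diamonds) and for their expressed relatives or partners outside the stretch (grey). TANK, BAZ2B, CERS6, GPD2, GCA, STK39, STAM2, RBMS1, PSMD14 and COBLL1 lie below each of their grey points, whereas PKP4, GRB14, FMNL2, TANC1, ACVR1 and DPP4 lie within or above theirs.

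Across all lists of relatives and partners, 76 of 93 genes were expressed, and their median log2 ratio was -0.06. By 2-fold or more, 5 of them (6.58%) were lower and 7 (9.21%) higher, against 9.68% and 10.6% of all expressed genes. Others were NEBL (-0.58), CACNB2 (-0.32), TP53BP1 (-0.26), UPP1 (-0.18), CSRNP2 (-0.09), RBMS2 (0.04), TTC21A (0.41), CACNB1 (0.55), MAD2L2 (0.87), RBMS3 (1.07), CSRNP1 (1.10) and CACNB3, at 63.2 in both libraries. The lists were written from family membership and hold genes of unequal likeness to the members.

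Levels per kb of exon allow the expressed members to be ranked within each library. TNFAIP6 moved from rank 37 of 38 in the parental library (0.0222 per kb) to rank 2 in the resistant one (14.4 per kb). SCN9A moved from rank 28 to rank 9 and TANK from rank 2 to rank 12. MARCH7 was at rank 3 in both, at 24.2 and 14.1 per kb.

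Promoters were matched for 46 of the 51 members. The 35 expressed members among them had a median of 28 CpG per 300 bases, against 26 over 9791 promoters of expressed genes. Members below the minimum level had a median of 3, over 11 promoters. Under 6 CpG were found for 6 expressed members (17.1%, against 8.81%), namely TNFAIP6, TANK, ERMN, NEB, SCN2A and DAPL1, which include genes of both directions. The AP-1 motif TGANTCA, which reads the same on both strands, was searched because JUN stands in the title of the study. It occurred in 3 of 46 member promoters (6.52%), against 6.03% of promoters of measured genes and 7.76% of all 27305 promoters of that length. Among expressed members the motif was in 1 of 35 (2.86%), against 4.65% of promoters of expressed genes. In TNFAIP6 it was TGAGTCA, beginning 129 bases before the start, and SCN1A and CACNB4 held the others. The E-box CACCTG, or CAGGTG on the other strand, occurred in 11 of 46 (23.9%), against 19.6% for measured genes and 20.6% for all promoters. Among expressed members it was in 10 of 35 (28.6%), against 18.8% of promoters of expressed genes. LY75 and LY75-CD302 have the same promoter sequence, and its E-box was counted for both. A match describes these letters only.

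Head-to-head pairs shared promoter sequence and still differed in ratio. The PKP4 promoter shown above shares 298 bases with that of CCDC148 on the other strand, and their log2 ratios were -1.01 and -1.53. BAZ2B and MARCH7 share 163 bases, with -1.78 and -0.78. Exons of 17 expressed members overlap those of another GENCODE gene on the opposite strand, in CERS6 over 41.4% of its exon bases, so that reads of both strands may be counted together there.

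Epithelial and lung adenocarcinoma markers were present in both lines: 9 of 12 were at a level of at least 1 in each library, with a summed level of 14685 in parental and 5636 in resistant cells. Each of these 9 was lower in resistant cells, with log2 ratios from -0.39 (KRT7) to -5.26 (MUC1). EPCAM was at 527 and 62.4 (-3.06) and CDH1 at 1271 and 146 (-3.11). NKX2-1, the lung adenocarcinoma transcription factor, was at 95.0 and 9.33. Leukocyte markers summed to 5.10 and 7.78 over 12 genes, with CD3E, MS4A1, CD2 and AIF1 at 0 reads in both and PTPRC at 0 and 32 reads. Most of the resistant sum came from ITGAX, a marker of myeloid and dendritic cells, at 0.931 and 6.002, while CD14 was at 1.88 and 0.203 and CSF1R at 1.83 and 0.763. Fibroblast markers summed to 9.54 and 1.95 over 9 genes, nearly all from COL1A1, with COL3A1, THY1 and POSTN at 0 in both. Endothelial markers summed to 20.01 and 11.9 over 7 genes found. Neuronal and neuroendocrine markers summed to 120 and 512, nearly all from ENO2, with INSM1 and STMN2 at 0 in both. Their part in the ratios of LY75, TNFAIP6 or the sodium channel genes was not tested.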

How the data were processed

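The deposited table holds 1 log2 value per gene and library, and its name describes RPKM. TopHat was used, per the submitters' processing notes. Version, counter, genome build and strand setting: not given in the sources used here. Back-transformed, the deposited log2 values were whole multiples of 1 step per library (0.00700 and 0.00727), within 0.1 read for 100% of genes with 1 to 100000 reads, so they are reads times 1 factor and not divided by length. The 3504 and 3573 genes at the lowest value, 0.9 of a step, were taken as 0 reads. The column ending in Prim was read as the parental line. Positions and merged exon lengths came by Ensembl identifier from GENCODE 29 (20187 of 20985 genes), which need not be the authors' annotation. Identifiers with trailing text (25) were shortened. No test was possible with 1 library per group. Read recovery, fold calls and intervals were checked on simulated data. Members, roles, relatives and markers were chosen with earlier results of these data known; every expressed member is named apart from 2 members that are not reported here, with the 5 nearest expressed genes on each side and the expressed relatives (proteasome, peptidase and receptor families by range). FIGN, LY75-CD302 and UPP2-IT1 were given their role after values were seen. Python 3.11.15, pandas 2.3.3 and scipy 1.17.1 were used. Alternatives were the pseudocount, minimum level, scaling, length, centring and the gene set.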

Additional observations from a re-analysis of the deposited data

How the results depend on the processing

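With a pseudocount of 5 the number of members at least 2-fold lower was 6 and the median log2 ratio -0.61, and with levels per kb of exon the counts were 5 lower and 3 higher with a median of -0.64, since 1 added unit weighs more there and 32 members were expressed. Without a minimum level the median was -0.42, since 13 low members entered, and with all genes between both ends it was -0.95. Among alternatives added after the data were seen, a fold of 1.5 gave 23 lower members, a minimum of 1000 reads in both libraries left 3 higher ones, and leaving out LY75, LY75-CD302, CD302 and MARCH7 gave 3 higher ones and a median of -0.87. The 10 lower members under scaling by the median of ratios, and again relative to the median of all expressed genes, stayed within 1.5 times the 13 reported, as did the counts with a pseudocount of 0.1 (14) and a minimum level of 5 (11). Under that scaling and that centring, 0 of 76 single-gene values changed sign, but none could have. The log2 scaling factor was -0.02 and the median used for centring -0.03, while CD302, the expressed member nearest to 0, had -0.17. Another pseudocount or division by length cannot turn a sign either. No paired analysis was possible because each group holds 1 library. Spread between cultures is unknown, and depth limits members with under 100 reads.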
